A study of Mus musculus with 4 samples.

Results

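The 10 genes described here encode 2 inflammatory cytokines (Tnf and Il1b), 3 subunits of the transcription factor NF-kB (Nfkb1, Nfkb2 and Rela), 4 proteins that act on NF-kB signalling and are also induced by it (Nfkbia, Nfkbiz, Tnfaip3 and Birc3) and an adhesion molecule (Icam1). They were chosen by name, from 31053 genes in the feature table, and all 10 had UMIs in the cells kept. The study used droplet 3' RNA-seq of single cells from whole lungs of mice that carried small cell lung cancer cells injected orthotopically. The 4 libraries, 1 per group, came from mice given vehicle with isotype IgG (control), the PD-1 antibody 29F.1A12 at 200 µg per mouse 3 times a week (anti-PD-1), the CDK7 inhibitor YKL-5-124 at 10 mg/kg on weekdays (YKL-5-124), or both agents (combination). All mice carried the same kind of transplanted tumour, and no source used here gives mouse strain, age, treatment length or the number of animals per library. Perfused lungs were digested with collagenase D and DNase I at 37 °C, and live cells were sorted by DAPI staining.

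NF-kB dimers are held in the cytoplasm by inhibitor proteins, of which IkB-alpha, the product of Nfkbia, is the best known. TNF and IL-1 receptors activate a kinase complex that marks IkB-alpha for degradation, so that dimers such as p50 (from Nfkb1) with p65 (from Rela) enter the nucleus. There they induce cytokines and adhesion molecules and also their own brakes, among them Nfkbia and the ubiquitin-editing enzyme A20, the product of Tnfaip3. In the lung, neutrophils, monocytes and macrophages are known as strong sources of IL-1β and TNF.

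The reference annotation (GRCm38) places the genes at chr17:35199381-35202007 (Tnf), chr2:129364570-129371139 (Il1b), chr3:135584655-135691547 (Nfkb1), chr19:46304320-46312385 (Nfkb2), chr19:5637483-5648130 (Rela), chr12:55489410-55492647 (Nfkbia), chr16:55811375-55838899 (Nfkbiz), chr10:19000910-19015657 (Tnfaip3), chr9:7848699-7873186 (Birc3) and chr9:21015985-21028817 (Icam1). Genes annotated on the other strand overlap Il1b (Il1bos), Nfkb2 (Psd and AC114539.1) and Icam1 (Gm47079), and Gm43430 overlaps Nfkb1 on its own strand. No source used here says whether counting used strand, so reads of these pairs could be split between them. Promoters are shown because 3 of these genes carry letters of the NF-kB consensus just before a RefSeq start site. The RefSeq table (GRCm38.p6) held promoters of 8 of the 10 genes, without Nfkb1 and Nfkbiz, and the 250 bases before the start site were searched on both strands for the consensus of 10 letters by its name. Matches were found for 3 of the 8 genes, Nfkbia, Nfkb2 and Tnfaip3, where a gene counted if any of its start sites matched. By the same rule 8.23% of all 27025 genes had a match, and 7.25% of all 32851 promoters of that length did. Start sites 2 and 3 of Nfkb2, not printed here, held 1 match each, and start site 2 of Tnfaip3 held none. Each promoter below is printed 5′ to 3′ on the strand of its gene, with matches in capitals, at chr12:55492648-55492897 on the minus strand (Nfkbia), chr19:46304487-46304736 on the plus strand (Nfkb2) and chr10:19015411-19015660 on the minus strand (Tnfaip3).
Nfkbia: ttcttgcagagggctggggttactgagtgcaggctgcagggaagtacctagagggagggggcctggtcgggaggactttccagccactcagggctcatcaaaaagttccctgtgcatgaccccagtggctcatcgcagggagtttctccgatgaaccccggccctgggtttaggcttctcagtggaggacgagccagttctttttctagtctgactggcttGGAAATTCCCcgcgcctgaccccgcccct
Nfkb2: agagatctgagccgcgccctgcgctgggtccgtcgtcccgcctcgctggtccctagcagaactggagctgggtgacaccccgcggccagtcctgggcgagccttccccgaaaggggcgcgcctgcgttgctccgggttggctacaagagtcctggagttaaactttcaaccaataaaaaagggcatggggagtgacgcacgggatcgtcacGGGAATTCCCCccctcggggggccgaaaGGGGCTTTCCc
Tnfaip3: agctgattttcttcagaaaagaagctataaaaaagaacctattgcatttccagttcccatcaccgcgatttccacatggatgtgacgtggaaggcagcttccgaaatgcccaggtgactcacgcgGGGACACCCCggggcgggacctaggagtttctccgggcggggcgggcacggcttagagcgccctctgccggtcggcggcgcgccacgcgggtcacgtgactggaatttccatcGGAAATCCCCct
The Nfkbia promoter held 1 match, starting 29 bases before the start site. The Nfkb2 promoter shown held 3, starting at 39, 38 and 11 bases before it, of which the first pair overlap. The Tnfaip3 promoter shown held matches 125 and 12 bases before the start site. The RefSeq start sites used for Nfkb2 and Tnfaip3 lie inside the gene spans given above. The sequence shown therefore lies wholly (Nfkb2) or almost wholly (Tnfaip3) within the annotated gene. A match describes these letters only.

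Cells were barcodes of 500 or more UMIs and 300 or more genes in which mitochondrial transcripts made up 10% of UMIs or less. This gave 14411 cells, 2736 to 4152 per library, with medians of 1939 to 2239 UMIs. The matrices held 17329001 to 22950622 UMIs per library. A cell was gated to the lineage of which it expressed the most of 12 markers, with at least 2 detected and a lead of 2. Of 10 lineages, 6 had at least 50 gated cells in every library and were compared, and 1605 cells (11.1%) were ungated. Control, anti-PD-1, YKL-5-124 and combination held, in this order, 912, 742, 777 and 699 tumour-gated cells, 877, 603, 746 and 1115 T cells, 313, 290, 258 and 376 NK cells, and 692, 454, 746 and 526 B cells. Monocytes or macrophages numbered 152, 175, 454 and 490, and neutrophils 95, 88, 686 and 181. Libraries shared cell barcodes: 469 to 537 per pair of libraries, where independent draws would share 12.9 to 22.8. Of 658 barcodes kept in several libraries, the deepest copy had a median of 29159 UMIs and the shallowest 741. Of the 1593 shallower copies, 985 were tumour-gated, 31.5% of tumour-gated cells with 3.10% of their UMIs, 518 were ungated and 90 were gated to another lineage. Of tumour-gated cells, 66.7% lay in clusters named tumour by the same markers and 1028 in clusters left unnamed, and for the other 5 lineages 91.9% to 99.2% lay in clusters of the same name. The lineage tests, the ratios of the 10 genes and the pathway counts were therefore recomputed with the deepest copy of each barcode alone. No ratio between a treated library and control that passed the 1.5-fold rule below fell back under it then.

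Levels are given as CPM, the summed UMIs of a gene in the gated cells of a library scaled to the total UMIs of those cells, always in the order control, anti-PD-1, YKL-5-124 and combination. Free RNA, from barcodes of 10 to 100 UMIs, held these genes as well. In free RNA Nfkbia was at 385, 444, 734 and 861 CPM, Il1b at 128, 141, 438 and 268, Tnfaip3 at 28.9, 41.3, 47.3 and 72.1, and Tnf at 2.95, 4.43, 5.50 and 10.2. All 4 of these genes were lowest in free RNA of the control library. Lineages were compared with edgeR's quasi-likelihood test on UMI sums of 6 lineages in 4 libraries, with library as a block and Benjamini-Hochberg adjustment over 11643 genes. A gene was called at an adjusted p of 0.05 and a 2-fold difference from the mean of the other lineages. The 4 libraries serve as replicates of a lineage although their treatments differ. Orders of levels given below are among the 6 lineages compared.

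Il1b, the precursor of the fever cytokine IL-1β, had its highest level in neutrophils in every library. Neutrophil-gated cells held 12714, 13842, 6515 and 11008 CPM, followed by monocytes or macrophages at 1797, 1478, 1227 and 1419. The lymphocyte lineages and the tumour cells lay between 5.39 and 118 CPM, below monocytes in every library, and those lymphocyte and tumour levels were under the free RNA of their own library. Neutrophils exceeded the mean of the other lineages by 7.26 on the log2 scale (SE 0.33, edgeR adjusted p 6.23e-12), and monocytes or macrophages by 3.68 (SE 0.33, edgeR adjusted p 7.29e-08). In the YKL-5-124 library, neutrophils carried 70.0% of all Il1b UMIs in kept cells, against 39.5%, 41.7% and 35.6% in the control, anti-PD-1 and combination libraries. Neutrophils were also 16.5% of kept cells in that library and 2.73%, 3.22% and 4.48% in the others.

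Tnf was sparse, with 40, 34, 115 and 192 UMIs over all kept cells. It was highest in the myeloid lineages: monocytes or macrophages held 35.6, 11.0, 20.4 and 32.9 CPM, and neutrophils 9.34, 10.3, 26.5 and 120. The neutrophil values rest on 1, 1, 39 and 33 UMIs. The order of these lineages reversed between libraries, each being higher in 2 of 4. T cells were at 3.09, 8.64, 6.18 and 5.67 CPM, and NK, B and tumour cells at 1.97 CPM or less in every library. The T cell difference from the other lineages (log2 1.10, SE 0.41, edgeR adjusted p 0.0298) was lost without the anti-PD-1 library (log2 0.62, adjusted p 0.169), where 1 cell held 9 of the 15 T cell Tnf UMIs, and without the library block (adjusted p 0.0554).

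Among the subunits, Rela varied least between lineages. It lay between 11.2 and 56.1 CPM in all 24 combinations of lineage and library, and no lineage was called. The neutrophil difference of 0.97 (log2, SE 0.23, edgeR adjusted p 0.000223) was under 2-fold, and without the control library it was 1.08 and called. In free RNA Rela was at 37.1, 31.7, 34.2 and 34.9 CPM, about its level in most lineages, whose medians ran from 22.3 to 38.1. Its 5 neighbouring pairs of lineages in the order of levels all overlapped. Dendritic cells, too few to be compared, held Nfkb1, which encodes p105 and its product p50, at 62.1, 117, 166 and 150 CPM. These values rest on 7, 11, 12 and 26 UMIs. Among the 6 lineages compared, Nfkb1 was highest in monocytes or macrophages (88.1, 91.3, 70.5 and 110 CPM) and T cells (64.8, 62.8, 82.7 and 132). NK cells (43.9 to 89.4 CPM) and B cells (47.4 to 73.8) overlapped T cells, and neutrophils were lower (37.4, 30.9, 36.0 and 29.1). Nfkb2, the p100 and p52 gene of the non-canonical arm, was instead highest in B cells at 95.2, 70.6, 103 and 82.6 CPM, above monocytes or macrophages (84.3, 45.6, 60.6 and 62.8) in every library although the ranges overlapped. B cells exceeded the mean of the others by 1.68 for Nfkb2 (log2, SE 0.11, edgeR adjusted p 1.66e-21).

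Of the feedback genes, Nfkbia and Nfkbiz were highest in neutrophils. Nfkbia stood at 4307, 4261, 2712 and 4345 CPM there, at 1096, 929, 920 and 1188 in monocytes or macrophages, and at 866, 833, 1253 and 1467 in T cells. NK cells (632, 822, 699 and 771) and B cells (536, 331, 602 and 427) followed, and tumour cells had 109, 97.4, 113 and 131. Neutrophils lay above every other lineage without overlap, by 3.25 on the log2 scale from the mean of the others (SE 0.09, edgeR adjusted p 2.53e-45). Nfkbiz, the nuclear inhibitor-like protein that also drives a set of secondary response genes, stood at 757, 864, 438 and 516 CPM in neutrophils and at 189, 161, 110 and 184 in monocytes or macrophages.

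Tnfaip3 was high in a different set of lineages. NK cells held 223, 349, 205 and 266 CPM, T cells 208, 220, 227 and 247, and neutrophils 243, 360, 145 and 229, and these 3 overlapped. Monocytes or macrophages (54.3, 45.6, 35.0 and 46.3) and B cells (34.5, 24.4, 29.9 and 39.1) lay below all of them. Birc3, a ubiquitin ligase of the TNF receptor complex, was high in neutrophils (168, 216, 114 and 124 CPM) and steady in B cells (140, 130, 132 and 133). B cells exceeded monocytes or macrophages for Birc3 in all 4 libraries without overlap. Among the 6 lineages compared, Icam1, the endothelial and leukocyte ligand of LFA-1, was highest in NK cells at 94.7, 87.7, 116 and 94.1 CPM. T cells were lower (51.6, 63.4, 68.0 and 67.0) in all 4 libraries. Endothelial cells, too few to be compared, held more Icam1 than NK cells, at 140, 162, 139 and 502 CPM. Fibroblasts or mural cells held 135, 104, 94.5 and 196 CPM.

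Tumour cells were lower than the mean of the other lineages for 9 of the 10 genes, all but Rela, with a background of 21.8% of genes called lower. Their differences ran from -1.92 (Icam1) to -6.39 (Tnf) on the log2 scale. Neutrophils were higher for 6 genes (Tnf, Il1b, Nfkbia, Nfkbiz, Tnfaip3 and Birc3; background 17.3%) and monocytes or macrophages also for 6 (Tnf, Il1b, Nfkbiz, Nfkb1, Nfkb2 and Birc3; background 15.5%). T cells were higher for Tnf, Nfkb1 and Tnfaip3 (background 11.9%) and lower for Il1b (background 5.58%). NK cells were higher for Tnfaip3 and Icam1 (background 9.74%) and lower for Il1b (background 9.17%). B cells were higher for Nfkb2 and Birc3 (background 11.4%) and lower for Il1b, Nfkbiz and Tnfaip3 (background 8.32%). The plot of levels by lineage and library shows these orders. Without TMM scaling the median over all genes moved by 0.90 in tumour cells and by -0.64 in neutrophils, and every called difference kept its direction. Rela in tumour cells, at -0.95 with TMM scaling, was then at -0.05, and the uncalled neutrophil differences of Nfkb1, Nfkb2 and Icam1 turned from 0.31, 0.27 and 0.22 to -0.32, -0.39 and -0.42. The T cell call of Il1b, at -1.16, was lost without the anti-PD-1 library (-1.12) or the YKL-5-124 library (-1.03), with the deepest copies alone (-1.13) and without the filter on low counts (-1.21), where the difference stayed past 2-fold but the adjusted p did not pass. The T cell call of Nfkb1, at 1.10, was lost without the combination library (0.90) and with clusters in place of the gate (0.93), under 2-fold. The monocyte or macrophage call of Nfkb2, at 1.09, was lost in the same way without the control library (0.98), without TMM (0.86), with DESeq2 (0.91) and with clusters (0.99). The B cell call of Tnfaip3, at -1.08, was lost without the anti-PD-1 library (-0.997).

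**Figure D1:**
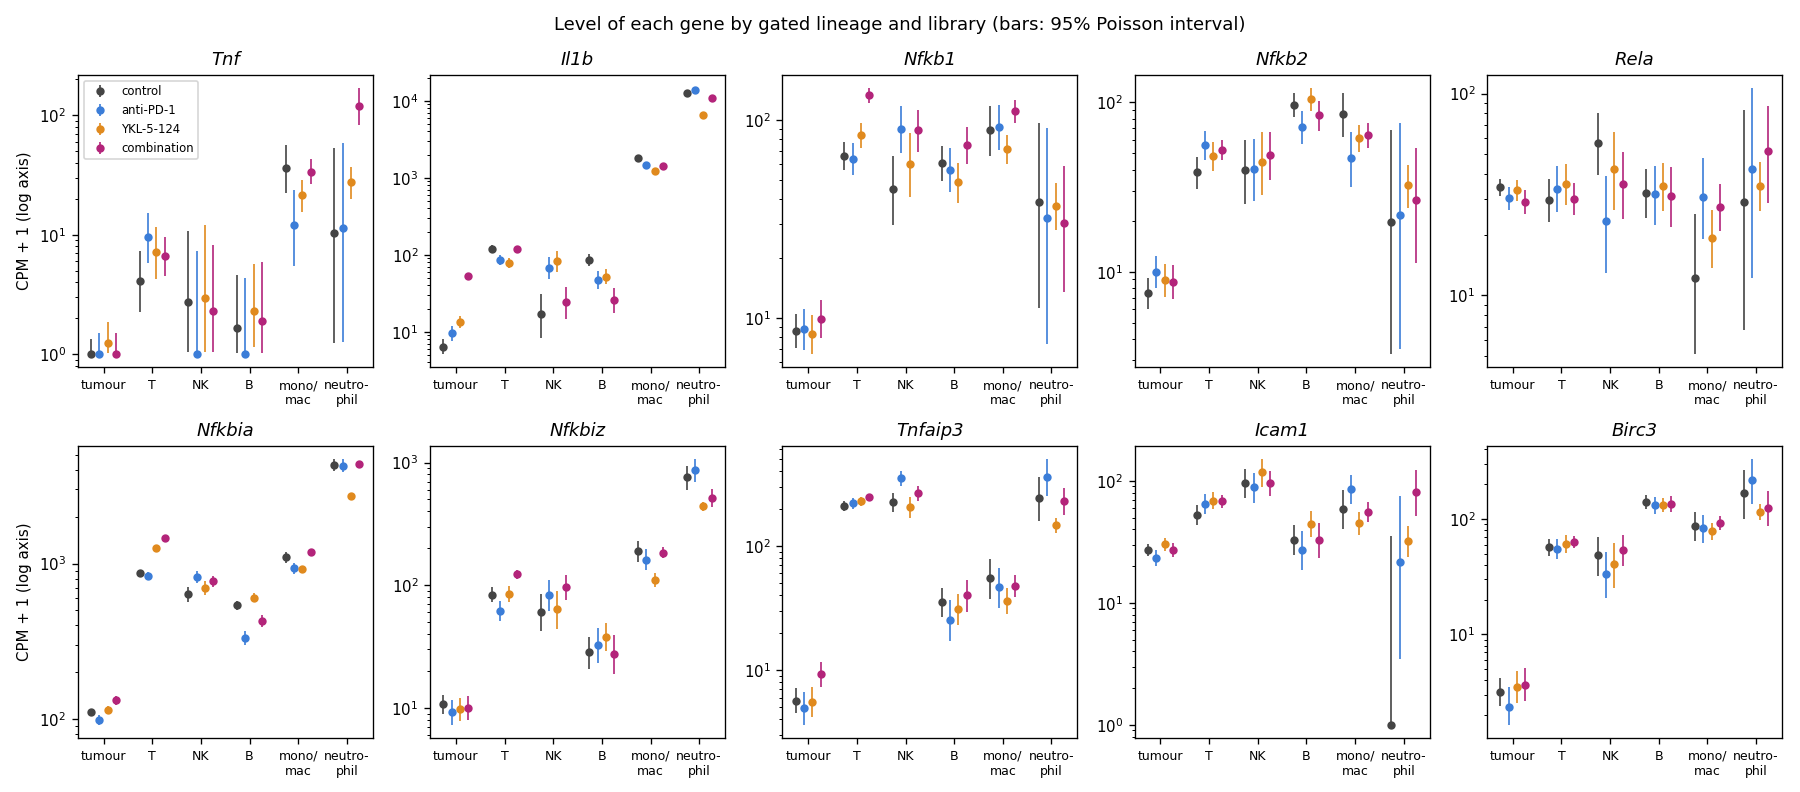
Level of each of the 10 genes (CPM + 1, log axis) in 6 gated lineages, 1 point per library with its 95% Poisson interval. Il1b in neutrophils lies between 6515 and 13842 CPM, Rela is nearly level between lineages, and 9 genes are low in tumour cells.

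Treated libraries were compared with control within each lineage, which asks whether the agents went with different levels of these genes in given cells. With 1 library per group there is no test of a treatment, and treatment, library and animals cannot be told apart. Ratios of CPM carry exact 95% intervals that cover counting error only, and a difference was counted when it passed 1.5-fold after 10 CPM was added to both levels. Genes with a mean of at least 10 CPM were counted as measured, which held for 51 of the 60 pairs of gene and lineage. Of these 51, 10 passed the rule in each of the 3 treated libraries. Beside the counts of each lineage stand the shares of all its measured genes past the same rule, called the background. The combination and YKL-5-124 libraries differed past the rule for 10 of the 51. In tumour cells 1 of 4 measured genes did (background in either direction 0.336%), in T cells 1 of 9 (2.43%) and in NK cells 1 of 9 (9.91%). B cells had 1 of 9 (3.27%), monocytes or macrophages 1 of 10 (3.31%) and neutrophils 5 of 10 (24.1%).

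In T cells, Nfkbia and Nfkb1 were higher in the combination library. Nfkbia was 1.69-fold control (1.61 to 1.78), from 1965 UMIs against 5689, and Nfkb1 2.04-fold (1.69 to 2.46), from 147 against 512. Both were highest of the 4 libraries in the combination, and no other gene of the 9 measured passed the rule against control. Against anti-PD-1, Nfkbiz passed it as well (1.99-fold, 1.61 to 2.48, with a background of 5.65% higher and 0.975% lower). Against control, the background of the combination was 8.21% of genes higher and 1.27% lower. None of the 9 passed it in the anti-PD-1 or YKL-5-124 library, where 1.89% and 6.4% of genes were higher and 0.815% and 0.917% lower. Nfkbia had a ratio of 1.45 (1.36 to 1.53) in the YKL-5-124 library, and Nfkb1 was 1.60-fold higher (1.34 to 1.91) in the combination than there. Thinned to 800 UMIs per cell, 34.8%, 39.9%, 45.8% and 48.7% of T cells held an Nfkbia UMI, against 8.40% to 9.18% of tumour cells. Before thinning, median depths were 1996, 2256, 2035 and 2452 UMIs in T cells and 4975 to 6555 in tumour cells.

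The combination library was the highest in both T cell branches. In cells with Cd4 UMIs only, Nfkbia stood at 836, 1000.4, 1459 and 1907 CPM (101, 75, 94 and 186 cells) and Nfkb1 at 61.3, 75.6, 114.5 and 179. In cells with Cd8a or Cd8b1 UMIs only, Nfkbia stood at 701, 655, 931 and 1140 CPM (338, 265, 280 and 400 cells) and Nfkb1 at 52.6, 54.1, 67.0 and 102. The ratios of the combination to control were 2.28 (1.961 to 2.67) and 1.63 (1.49 to 1.78) for Nfkbia in the Cd4 and Cd8 branches, and 2.92 (1.68 to 5.48) and 1.95 (1.42 to 2.71) for Nfkb1. Clusters named T cell differed in size between libraries: 1 of them held 86, 93, 150 and 308 cells, and another 323, 177, 187 and 249. Levels within these clusters were not compared, and the part of their sizes in the result was not tested. Nfkbia in free RNA was higher in the combination library too, as given above. B cells of that library held less Nfkbia than control (427 against 536 CPM). Nfkb1 in free RNA was at 39.4, 44.7, 51.6 and 67.6 CPM. In B cells Nfkb1, at 47.4 to 73.8 CPM, was also highest in the combination. The part of free RNA in the T cell result was not tested. The summed NK cell markers in T cells were 1396 CPM in control and 557 to 608 in the treated libraries, and the summed B cell markers 1226 against 397 to 497, with all 12 markers of each list detected. Monocyte or macrophage markers (172, 105, 138 and 267 CPM) and dendritic cell markers (48.1, 67.4, 61.8 and 100.3 CPM) in T cells were highest in the combination, as Nfkbia and Nfkb1 were. The summed lung epithelial markers in T cells were 24.3, 14.98, 2005 and 404 CPM, with 2 of the 12 at 0 in all libraries. The part of these in the result was not tested. With each cell weighted equally, the log2 ratios of 0.75 for Nfkbia and 0.92 for Nfkb1 were 0.54 and 0.56, just under the rule at 0.58.

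**Figure D2:**
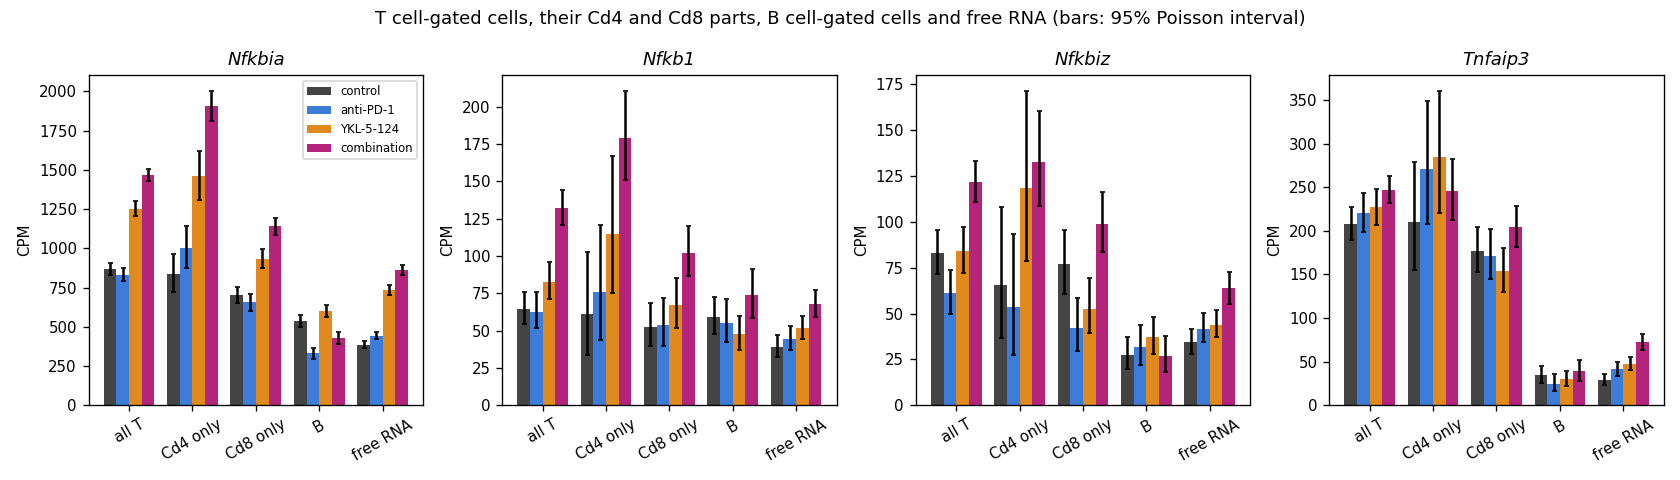
CPM of 4 genes in all T cell-gated cells, their Cd4-only and Cd8-only parts, B cell-gated cells and free RNA, 1 bar per library with its 95% Poisson interval. Nfkbia and Nfkb1 are highest in the combination library in all T cells and in both branches.

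In neutrophils, 4 genes were lower in the YKL-5-124 library: Il1b (0.51-fold, 0.48 to 0.54), Nfkbia (0.63-fold, 0.57 to 0.69), Nfkbiz (0.58-fold, 0.46 to 0.74) and Tnfaip3 (0.60-fold, 0.40 to 0.94). The background was 24.3% of genes lower and 17.4% higher, and control neutrophils hold 107045 UMIs in all. With each cell weighted equally, the log2 ratios of Nfkbia and Tnfaip3 moved from -0.67 and -0.70 to -0.39 and -0.46, under the rule. Of the 686 neutrophils of that library, 343 carried at least 3 UMIs of the granule genes Camp, Ngp and Ltf, made by maturing neutrophils, against 1, 1 and 16 in control, anti-PD-1 and combination. Those granule-rich cells held 4061 CPM of Il1b and 1957 of Nfkbia. In the remaining, granule-poor cells, Il1b stood at 12823, 13941, 10854 and 11714 CPM and Nfkbia at 4343, 4291, 4047 and 4515, ratios to control of 0.85 and 0.93 under YKL-5-124, so that neither passed the rule. Nfkbiz was 763, 871, 511 and 520 CPM in granule-poor cells, at 0.67-fold control under YKL-5-124 (0.52 to 0.87) and 0.68-fold in the combination (0.51 to 0.91). These are log2 ratios of -0.57 and -0.54, which do not pass the rule either.

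Tnf in neutrophils was 12.8-fold control in the combination library, with an interval of 2.15 to 522 and 1 UMI in control (background 20.1% higher and 19% lower). The 33 UMIs came from 16 cells, and 1 cell held 30.3% of them. Against the better counted YKL-5-124 library, Tnf was 4.53-fold higher (2.76 to 7.38). Icam1 was at 0, 2, 46 and 22 UMIs in the neutrophils of the 4 libraries. A count of 0 in control allows up to 28.0 CPM (3 counts). Icam1 stood at 2.85 times that limit in the combination and 1.12 times under YKL-5-124. These values leave out the counting error of the treated libraries, so they are not lower bounds of a ratio. Tnf under YKL-5-124 also passed the rule, with an interval of 0.48 to 115, as did Icam1 in the anti-PD-1 library with its 2 UMIs (background 22.9% higher and 24% lower). Rela passed it in the combination, from 3 UMIs against 14, with an interval of 0.51 to 9.85. The ratio plot shows the width of these intervals.

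**Figure D3:**
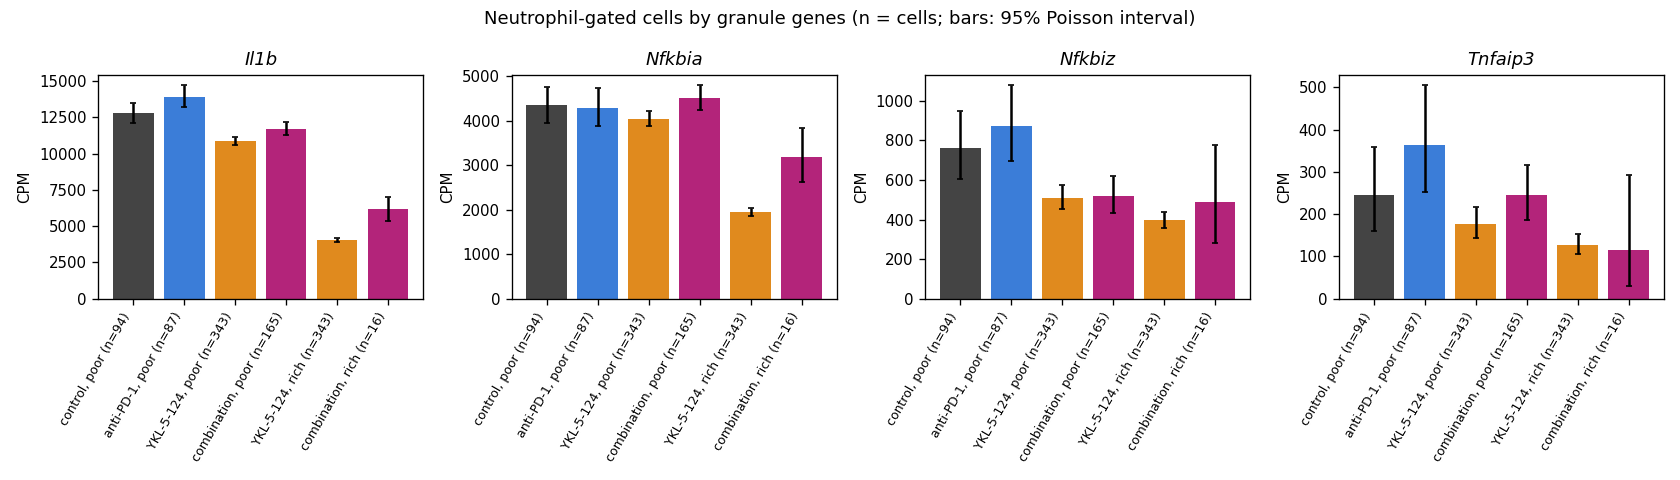
CPM of 4 genes in granule-poor and granule-rich neutrophil-gated cells, 1 bar per library with at least 10 such cells, with its 95% Poisson interval. Il1b and Nfkbia lie close together in granule-poor cells of all libraries and are low in the 343 granule-rich cells of the YKL-5-124 library.

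In monocytes or macrophages, Nfkbiz was lower under YKL-5-124 at 0.58-fold (0.46 to 0.74), with a background of 4.56% of genes lower and 5.61% higher, and the combination stood at 184 CPM against 189 in control. With clusters in place of the gate its log2 ratio moved from -0.74 to -0.49, under the rule. Tnf was lower in the anti-PD-1 library (0.31-fold, 0.11 to 0.77, from 7 UMIs against 19; background 5.82% lower) and, by the rule, in the YKL-5-124 library (0.57-fold), where the interval of 0.32 to 1.05 includes equality. Subsets differed in number: cells led by classical monocyte genes such as Ccr2 and F13a1 numbered 35, 44, 200 and 167, and cells led by nonclassical genes such as Ace and Treml4 51, 66, 166 and 220. Under YKL-5-124, Nfkbiz was 0.49-fold control in classical cells (0.26 to 0.97), 0.72-fold in nonclassical cells (0.52 to 1.01) and 0.37-fold in C1q-positive cells (0.17 to 0.78). Nfkbia in classical cells was 1245, 973, 588 and 917 CPM, 0.47-fold control under YKL-5-124 (0.40 to 0.56), while nonclassical cells held 1455, 1063, 1350 and 1396. Nfkb2 in the anti-PD-1 library was 0.54-fold control (0.33 to 0.88), and Rela passed the rule upwards in the anti-PD-1 and combination libraries against 6 UMIs in control (backgrounds 7.81% and 5.74% higher, and 3.31% lower in the combination).

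In NK cells, Tnfaip3 was 1.57-fold (1.25 to 1.97) and Nfkb1 2.04-fold (1.24 to 3.43) control in the anti-PD-1 library, with 7.48% of genes higher. Nfkb1 was 2.0-fold (1.25 to 3.30) and Nfkbiz 1.60-fold (1.05 to 2.48) in the combination (background 6.73% higher and 4.44% lower). With each cell weighted equally, the log2 ratios of Tnfaip3 and Nfkbiz dropped from 0.63 and 0.60 to 0.52 and 0.44, under the rule. Rela was 0.40-fold (0.19 to 0.78) in the anti-PD-1 library, from 13 UMIs against 32 (background 4.84% lower). Il1b in NK cells came from single cells: 1 cell held 77.8%, 92.3%, 78.0% and 77.8% of its UMIs in the 4 libraries. It passed the rule upwards in the anti-PD-1 and YKL-5-124 libraries (background 7.73% higher and 5.35% lower in the latter). With the highest doublet scores removed, the log2 ratio under YKL-5-124 moved from 1.82 to 0.13.

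In B cells, Nfkbia was 0.62-fold control in the anti-PD-1 library (0.54 to 0.70, from 366 UMIs against 839), and 2.64% of all measured genes were lower and 1.98% higher. With each cell weighted equally its log2 ratio moved from -0.68 to -0.54, under the rule. Il1b passed the rule downwards in all 3 treated libraries (85.0, 46.2, 50.7 and 24.9 CPM; backgrounds 2.64%, 1.17% and 2.02% lower, and 2.66% and 3.39% higher in the last 2). These levels were all under the Il1b level of free RNA, and 12 to 28 cells per library held the UMIs. The summed monocyte or macrophage markers in B cells were 152, 77.8, 98.8 and 85.3 CPM, also highest in control, and their part in the result was not tested. Cells of the B cell clusters in place of the gate gave log2 ratios of 0.75, 0.68 and 0.13 in place of -0.76, -0.65 and -1.45, so the direction depends on which cells are counted.

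In tumour cells, 4 of the 10 genes were measured (Il1b, Nfkbia, Rela and Icam1), and Il1b alone passed the rule, at 9.59-fold control in the combination (7.29 to 12.8; background 1.4% higher and 0.19% lower). Its levels were 5.39, 8.60, 12.5 and 51.7 CPM, all under the free RNA of the same library. The 388 UMIs of the combination came from 66 of 699 cells. The summed neutrophil markers in tumour cells were 22.4, 33.3, 112 and 71.4 CPM, with all 12 detected in at least 1 library, and the part of these in the result was not tested. With the highest doublet scores removed, the log2 ratio moved from 2.0 to 1.21. Nfkbia, Rela and Icam1 did not pass it in any treated library, and their ratios to control lay between 0.84 and 1.2. The background was 0.481% higher and 0.0112% lower in the anti-PD-1 library and 0.302% higher and 0.123% lower under YKL-5-124.

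**Figure D4:**
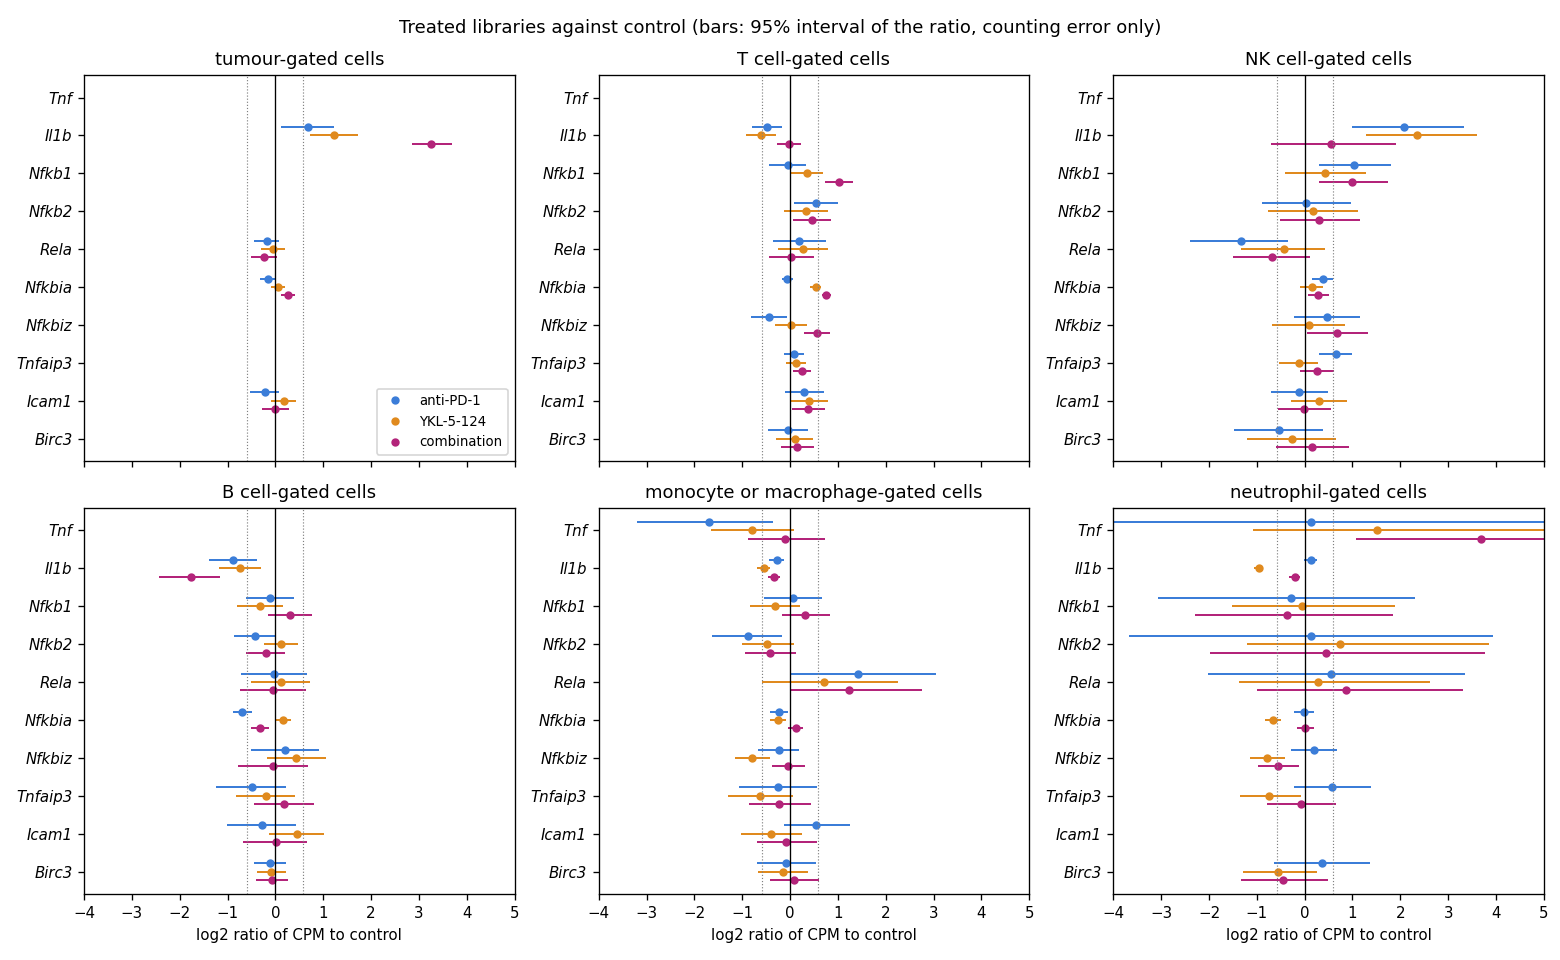
Log2 ratio of CPM of each treated library to control for the measured genes in 6 lineages, with 95% intervals for counting error and dotted lines at 1.5-fold. Intervals are drawn up to the axis limits, Icam1 in neutrophils is left out because control has 0 UMIs, and the T cell panel shows Nfkbia and Nfkb1 above 1.5-fold in the combination library.

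The wider pathway was read from 63 further genes in lists of ligands and receptors, signalling steps, subunits, inhibitors and feedback genes, and other targets. In T cells of the combination, 9 of 43 measured genes were higher and 1 lower, beside 8.21% and 1.27% of all measured genes, with a median log2 ratio of 0.20 beside 0.13. Among them were Tnip3, which encodes an A20-binding inhibitor (14.6 CPM in control and 39.2 in the combination, 2.69-fold, 1.84 to 4.05), Ier3, an early survival gene (2.78-fold, 1.73 to 4.69), and Cxcl2, a neutrophil chemokine (2.01-fold, 1.62 to 2.5). Of genes known to respond to tissue dissociation, 2 of 15 were higher there and 2 lower, with a median of -0.10. In T cells under YKL-5-124, 3 of the 43 were higher and 2 lower, beside 6.4% and 0.917% of all genes, so the higher share is about the background. The chemokine Ccl3 was at 141 CPM in control and 6.65 under YKL-5-124, Ccl4 at 329 and 90.8, and Cxcl2 at 48.9 and 120. Control NK cells held Ccl3 at 740 CPM, and the NK cell markers in T cells, given above, were also highest in control. The summed neutrophil markers in T cells were 56.9, 44.9, 117 and 55.2 CPM, highest under YKL-5-124. The part of these markers in the chemokine results was not tested.

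In neutrophils under YKL-5-124, 22 of the 48 further genes measured were lower and 6 higher, beside 24.3% and 17.4% of all genes, with a median of -0.46 beside -0.14. Of 15 dissociation genes, 7 were lower, with a median of -0.53. Without the granule-rich cells, 8 of the 48 pathway genes were lower and 8 higher, beside 16.9% and 21.0% of all genes, with a median of -0.20, and 3 dissociation genes were lower. The stress gene Gadd45b (0.33-fold, 0.24 to 0.46) and the chemokine Ccl3 (0.31-fold, 0.23 to 0.42) were among the lower in all neutrophils, and Ccl5 was higher (3.03-fold, 1.37 to 8.34). In the combination, 6 of the 48 were lower and 11 higher, beside 19% and 20.1% of all genes, with a median of 0.01, so neither share stands far from the background. Tlr2, a receptor for bacterial lipoproteins, was 2.0-fold (1.10 to 3.96) there and the IL-1 receptor antagonist gene Il1rn 0.62-fold (0.44 to 0.87), and Bcl2a1d, a survival gene, was 2.78-fold (1.25 to 7.26).

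Monocytes or macrophages under YKL-5-124 had 4 of 56 further genes higher and 9 lower, beside 5.61% and 4.56% of all genes, with a median of -0.19 beside 0.03. Il1rn was 0.40-fold (0.29 to 0.54) and the maturation marker Cd83 0.49-fold (0.42 to 0.57), and Ccl5 was 2.23-fold (1.48 to 3.50). In the combination, 5 were higher and 5 lower, beside 5.74% and 3.31% of all genes: the decoy receptor gene Il1r2 was 0.44-fold (0.34 to 0.57), Cd83 0.57-fold (0.49 to 0.67) and the TNF-receptor family member Cd40 2.46-fold (1.19 to 5.91). In NK cells, the survival genes Bcl2a1b (0.50-fold and 0.43-fold) and Bcl2a1d (0.37-fold and 0.39-fold) were lower under YKL-5-124 and in the combination, and Ccl3 was 0.35-fold in the combination (740 CPM in control, 262 in the combination). In NK cells 5 of 38 further genes were lower and 2 higher under YKL-5-124, and 6 lower and 3 higher in the combination. Over all NK cell genes, 5.35% were lower and 7.73% higher under YKL-5-124, and 4.44% and 6.73% in the combination, so the higher shares are near the background. Cxcl2 was at 7.02 CPM (4 UMIs) in control NK cells and at 109 under YKL-5-124. The summed neutrophil markers in NK cells were 26.3, 48.1, 221 and 19.3 CPM, highest in the same library, with 1 of the 12 at 0, and their part in the result was not tested. B cells had 2 of 42 higher and 0 lower under YKL-5-124, beside 2.66% and 1.17% of all genes, the kinase gene Chuk (1.68-fold, 1.15 to 2.48) and Ccl3 (4.31-fold, 2.51 to 7.79). Ccl3 had 17 UMIs in control B cells. The summed neutrophil markers in B cells were 26.2, 43.4, 148 and 25.8 CPM, and the NK cell markers 66.5, 44.3, 173 and 53.3. Both were highest under YKL-5-124, and their part in the result was not tested. Tumour cells had 1 of 25 higher under YKL-5-124, beside 0.302% of all genes, Ccl5 (28.5 CPM in control, 48.9 under YKL-5-124), and 2 in the combination, Ccl5 (53.2 CPM) and Cxcl2 (21.4 CPM in control, 42.0 in the combination). In tumour cells the summed T cell markers were 61.4, 61.7, 66.2 and 98.8 CPM and the neutrophil markers 22.4, 33.3, 112 and 71.4. Their part in these results was not tested. These treated libraries share the control library.

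Over the 24 sums of 6 lineages and 4 libraries, the genes whose log levels followed Nfkbia most closely among 7751 were S100a11 (Pearson r 0.98), Glipr2 (0.97) and Pim1 (0.97). Those nearest to Il1b were Lilrb4a, Ptafr and Mcemp1 (0.98 each), and those nearest to Tnf were AI839979 (0.88), C3 (0.86) and Nadk (0.85). The deviations of each library from its lineage mean correlated less: r was 0.60, 0.37 and 0.57 for the genes nearest to Nfkbia, 0.55, 0.46 and 0.41 for those nearest to Il1b and 0.74, 0.54 and 0.40 for those nearest to Tnf, in the order named. The 24 values share libraries and lineages, so these correlations are descriptions.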

How the data were processed

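Single-cell 3' libraries (10x v2 chemistry), 1 per group, were measured, and what the authors deposited are UMI counts, not normalized. Per the submitters' processing notes they come from bcl2fastq and Cell Ranger; version 3.0.0 stands in the file headers. Build hg19 is named in the notes, but the gene IDs are mouse Ensembl IDs, and no source used here gives the annotation behind the counts. The genes and lists were chosen with earlier results of these data known. Cells were filtered and gated as described above; doublet scores came from Scrublet and clusters, computed without the 10 genes, from Leiden (Scanpy 1.11.5, leidenalg 0.10.2). edgeR 4.0.16 tested lineages on UMI sums, leaving out gating markers; DESeq2 1.42.0 was an alternative. Tested on simulated data, edgeR recovered 90% of 2.5-fold and 100% of 4-fold changes for T cells over 7807 genes. That simulation gave all lineages equal means except in the changed genes, and no library effect. It therefore does not cover the shifts between lineages seen without TMM scaling. Also on simulated data, 95.5% of the intervals of the T cell comparison of combination with control held the true ratio over 6872 genes. Named pathway genes were, in each lineage, up to 3 with the largest log2 ratio to control under YKL-5-124 and in the combination, among those past 1.5-fold with at least 50 UMIs in both libraries together. The most alike genes had the highest Pearson correlation among genes of at least 10 CPM, lineage markers left out. T cell, neutrophil and monocyte subsets and the deepest-copy alternative were chosen after seeing the data.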

Additional observations from a re-analysis of the deposited data

Results flagged for a closer look

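Some ratios to control passed 1.5-fold upwards in one lineage and downwards in another, each with an interval that excludes 1, and the difference between lineages was not tested. In the anti-PD-1 library, Il1b was 4.25-fold in NK cells and 0.54-fold in B cells, and Rela 2.66-fold in monocytes or macrophages and 0.40-fold in NK cells. Under YKL-5-124, Il1b was 5.12-fold in NK cells, 0.60-fold in B cells and 0.51-fold in neutrophils. In the combination, Il1b was 9.59-fold in tumour cells and 0.29-fold in B cells. The intervals cover counting error only. As given above, single cells held most Il1b UMIs of NK cells. The Il1b ratios of B cells turned sign with clusters in place of the gate. With the highest doublet scores removed, little of the NK cell ratio under YKL-5-124 remained, and the tumour cell ratio in the combination was smaller.

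Lineages with under 50 cells in a library held some of these genes above control and some below it. No background was computed for these lineages. Dendritic cells (19 in control, 21 in combination) held Tnf at 14.3-fold (2.32 to 592) in the combination, where 1 cell had 90.9% of 22 UMIs. In the same cells Nfkb1 was 2.42-fold (1.02 to 6.61), Icam1 2.36-fold (1.05 to 5.98) and Nfkbia 1.25-fold (1.01 to 1.55), the last under 1.5-fold. Their Il1b was 2.22-fold, 2.59-fold and 2.07-fold control in the anti-PD-1, YKL-5-124 and combination libraries. Endothelial cells (74 in control, 64 in combination) held Icam1 at 3.59-fold (502 against 140 CPM) and Nfkbia at 1.76-fold in the combination, and Nfkbia at 2.5-fold and Nfkbiz at 5.07-fold in the 16 cells of the anti-PD-1 library. Fibroblasts or mural cells held Nfkbia at 1.93-fold under YKL-5-124 and 1.52-fold in the combination, and lung epithelial cells at 7.26-fold in the combination, against 1 UMI in control. Values below control, with an interval that excludes 1, were Icam1 in lung epithelial cells (0.33-fold in the combination, and 0 UMIs in the anti-PD-1 and YKL-5-124 libraries, against 16 UMIs from 5 cells in control) and Nfkbia in dendritic cells under YKL-5-124 (0.62-fold, 0.44 to 0.85). In the anti-PD-1 library, Icam1 in dendritic cells and Nfkbiz in fibroblasts or mural cells were at 0 UMIs, against 8 and 20 in control.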

How the results depend on the processing

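No paired analysis was possible because each group has 1 library. The count of 33 called pairs of gene and lineage ran from 32 to 33 over the planned settings and from 30 to 33 when each library was left out in turn, and 363 of 363 values of those pairs kept their direction. Of 362 values of the 30 ratios to control past 1.5-fold, 352 kept their direction and 309 stayed past it. With Leiden clusters in place of the gate, the genes past 1.5-fold between combination and YKL-5-124 fell from 10 to 5. Log2 ratios that turned sign with those clusters were Il1b in B cells (0.75, 0.68 and 0.13 for anti-PD-1, YKL-5-124 and combination against control), Il1b in NK cells (0.12, combination against anti-PD-1) and Rela in neutrophils (-0.082, combination against control). With a lead of 1 marker, Il1b in B cells was 0.058 (YKL-5-124 against control), and with 3 markers and a lead of 3, Il1b in NK cells was 0.28 (combination against YKL-5-124). In C1q-positive cells, Tnf was 1.52 (YKL-5-124 against control) and Rela -1.40 and -0.25 (anti-PD-1 and combination against control). The cause was not tested. Without granule-rich cells, the pathway genes past 1.5-fold in neutrophils under YKL-5-124 numbered 16 in place of 28. Among the 6 lineages compared, neutrophils have the least depth, at 97169 UMIs in anti-PD-1 and 107045 in control. The smaller lineages hold down to 17264 UMIs in a library.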
